A study of Arabidopsis thaliana with 4 samples.

Results

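Stomata, the pores of the leaf epidermis, were followed through 5 Arabidopsis thaliana genes in leaves carrying whitefly nymphs. The 5 were chosen by gene and probe set name, with earlier results of these data known: STOMAGEN (AT4G12970), AT1G22690, used as the guard cell marker GC1, FMA (AT3G24140), and a pair of probe sets given by their array identifiers. Each had 1 probe set, among 13356 genes that had one of their own, and 4 of the 5 were bright enough to test. The first identifier was SPCH (AT5G53210) in the platform annotation. The other had been put forward for TMM, the receptor-like protein of stomatal patterning, but the platform annotation pairs it with AT1G80180, a different gene further along the same chromosome. It is called AT1G80180 here, and TMM (AT1G80080) was not analysed here.

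RNA came from rosette leaves of accession Columbia, 7 weeks old and grown under 8 h of light a day. Infested plants received, at an age of 21 days, 100 adult silverleaf whiteflies each (Bemisia tabaci type B), which draw sap from the phloem. Adults were removed 7 days later, and leaves were collected 28 days after infestation, when nymphs of the second and the third stage were present. Uninfested plants were caged alongside, and leaves of matched development were taken. There were 2 arrays from infested and 2 from uninfested leaves, each with RNA pooled from 2 replicate experiments of 10 plants, so p-values measure the spread between pools. Whole rosette leaf was sampled, so fewer cells of a type and less RNA per cell cannot be told apart.

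A stoma forms through a series of divisions in the epidermis. SPCH, MUTE and FMA, basic helix-loop-helix transcription factors, act in turn: SPCH starts the lineage, MUTE ends the divisions of the meristemoid, and FMA (also FAMA) sets guard cell identity. Secreted peptides of the EPF family set how many stomata form. STOMAGEN, made in the mesophyll of young leaves, promotes stomata and competes with the inhibitory peptide EPF2 for receptors of the ERECTA family and TMM. Mature guard cells open and close the pore by moving ions under the control of light, carbon dioxide and abscisic acid.

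The 4 arrays had the same trimmed mean signal, to which the authors had scaled them, and median signals of 205.2 and 185.25 on the infested and 189.2 and 193.8 on the uninfested arrays. The array infested 2 stood apart: 27 tested probe sets read at least 8-fold above every other array there, against 0 on each of the other 3. The ratio of 3' to 5' signal of actin, a sign of RNA integrity, was 5.70 and 6.56 on the infested and 2.70 and 3.88 on the uninfested arrays by one pair of probe sets, with 1.31 and 1.43 against 1.43 and 1.42 for the other actin pair. The same ratio was lower on the infested arrays for GAPDH, with 0.975 and 1.02 against 1.17 and 1.15, and for ubiquitin, with 2.08 and 1.87 against 2.77 and 2.34. The part of these values in the differences below was not tested. Of 13648 probe sets tested with limma, 347 or 2.54% were called lower and 386 or 2.83% higher in infested leaves at an adjusted p under 0.05, and the median log2 difference was 0.04.

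STOMAGEN, the ligand, fell in infested leaves. Its probe set had signals of 262.6 and 141.5 on the infested arrays, against 672.4 and 700.7 on the uninfested ones. Both infested arrays were below both uninfested arrays, and the uninfested pair lay close together while infested 2 read 0.539 times infested 1. The means were 202.1 ± 85.6 in infested and 686.5 ± 20.0 in uninfested leaves (SD, n = 2 each). The log2 difference of infested minus uninfested was -1.75 ± 0.29 (SE) on the log2(signal + 16) scale, or 3.35-fold lower with a 95% confidence interval of 2.03 to 5.53, and the limma adjusted p was 0.0411. A larger fall was seen for 97 tested probe sets, or 0.711%. In the array pair numbered 1 the infested signal was 0.391 of the uninfested one, and in the pair numbered 2 it was 0.202. Leaving out infested 2 brought the log2 difference to -1.33 (adjusted p = 0.00462), and leaving out infested 1 brought it to -2.16. The call was lost without uninfested 1 (-1.78), without uninfested 2 (-1.72) and with every probe set tested (limma adjusted p = 0.0825). In each of these fits no probe set was called in either direction, so the loss is not particular to STOMAGEN.

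**Figure D1:**
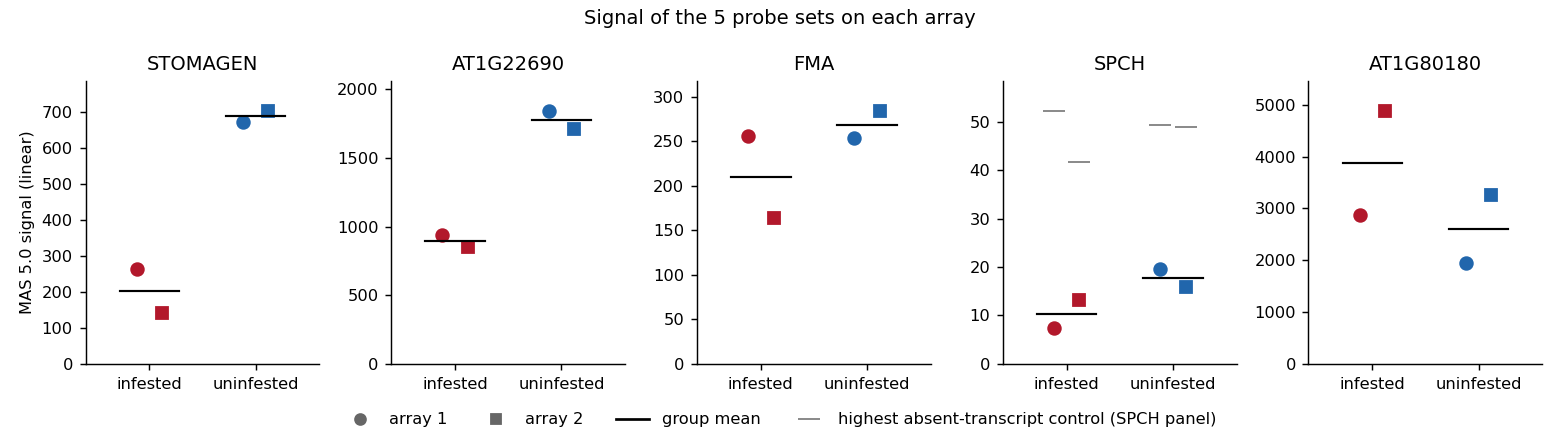
MAS 5.0 signal on a linear axis from 0 for each of the 5 probe sets, with infested arrays in red and uninfested arrays in blue, circles for arrays numbered 1, squares for arrays numbered 2 and a line at the group mean. STOMAGEN and AT1G22690 do not overlap between groups, FMA and AT1G80180 do, and SPCH lies below the highest control for an absent transcript (grey dashes, 41.7 to 52.1) on all 4 arrays.

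Of the transcription factors, SPCH gave no usable level. Its signals were 7.5 and 13.2 on the infested arrays, against 19.6 and 15.9 on the uninfested ones. On every array this was below the brightest of 27 controls for bacterial RNA absent from the samples, which read 52.1 and 41.7 on the infested and 49.2 and 48.8 on the uninfested arrays. SPCH was also below the filter and not tested, and a difference was not detectable at this signal. MUTE (AT3G06120), the next factor in the series and no member of the 5, was likewise below these controls on all 4 arrays, with 5.5 and 6.7 on the infested and 4.5 and 10.9 on the uninfested arrays.

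FMA, the last factor of the series, was measured above these controls on all 4 arrays. Its signals were 256.1 and 163.9 on the infested arrays, against 253.4 and 283.5 on the uninfested ones. The groups overlapped: infested 1 lay between the uninfested arrays, and infested 2 alone was lower. The log2 difference was -0.36 ± 0.25 (SE), which did not pass (limma adjusted p = 0.386), and its 95% confidence interval reached from 1.96-fold lower to 1.19-fold higher. Without infested 1 the difference was -0.66 and passed (adjusted p = 0.0366), in a fit that called 18.7% of all tested probe sets lower and 15.3% higher, and without infested 2 it was -0.06 (adjusted p = 0.868).

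AT1G22690, whose promoter is used to drive expression in guard cells, fell in infested leaves. Its signals were 937.6 and 854.2 on the infested arrays, against 1840.7 and 1711.1 on the uninfested ones. The groups did not overlap, and both pairs of same-numbered arrays gave nearly the same ratio, 0.509 and 0.499. The gene was 1.97-fold lower (95% confidence interval 1.49 to 2.60; limma adjusted p = 0.0411), with a log2 difference of -0.98 ± 0.16 (SE). A larger fall was seen for 723 tested probe sets, or 5.30%. The call was lost without uninfested 1 (-0.92), without uninfested 2 (-1.03) and with every probe set tested (limma adjusted p = 0.0763). As for STOMAGEN, no probe set was called in any of these fits.

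AT1G80180 did not pass the test, and its signal differed between the arrays of each group. Its signals were 2878.5 and 4872.5 on the infested arrays, against 1948.2 and 3253.1 on the uninfested ones. The groups overlapped, since uninfested 2 was brighter than infested 1. The arrays numbered 2 were brighter than those numbered 1 by 1.69 times in infested and 1.67 times in uninfested leaves, and within the pairs the infested array was higher by 0.56 and 0.58 on the log2 scale. The log2 difference was 0.57 ± 0.34 (SE), with a 95% confidence interval from 1.22-fold lower to 2.68-fold higher and a limma adjusted p of 0.330. With the replicate number as a block, a fit that called 9.19% of probe sets higher, the adjusted p was 0.0384. Without infested 1 the difference was 0.95 (adjusted p = 0.0374), without uninfested 2 it was 0.94 (0.358), without infested 2 it was 0.19 (0.711) and without uninfested 1 it was 0.20 (0.874).

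In total 2 of the 4 tested members were called lower and 0 higher, against 2.54% and 2.83% of all tested probe sets. Before adjustment, limma's p was 0.152 for AT1G80180 and 0.198 for FMA. Both infested arrays were below both uninfested arrays for STOMAGEN and AT1G22690, which holds for 28.1% of tested probe sets. The smallest two-sided p that an exact permutation test of 1 gene can give with 2 arrays in each group is 0.333.

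Other genes of stomatal development were reached through few named probe sets. Of 38 listed genes 6 had a probe set with 1 gene, and 3 of these were tested. STOMAGEN was the 1 called, against 2.54% of all tested probe sets called lower, and the median log2 difference of the 3 was -0.86, against 0.04 over all tested probe sets. The gene beside STOMAGEN and FMA was CRSP (ATSBT5.2, AT1G20160), a subtilisin-like protease known to cleave the precursor of EPF2, the peptide that STOMAGEN competes with. CRSP had signals of 211.3 and 176.7 on the infested arrays, against 316.1 and 415.7 on the uninfested ones. Its groups did not overlap, and its log2 difference of -0.86 ± 0.21 (SE) did not pass (limma adjusted p = 0.0748). It passed with the replicate block (adjusted p = 0.0325), a fit that called 10.3% of probe sets lower. The median of the 3 tested genes is the value of CRSP itself, and STOMAGEN and FMA were members. BRXL2, a partner of the polarity proteins of asymmetric division, was below the filter, with 104.1 and 62.4 on the infested and 113.2 and 78.9 on the uninfested arrays, which overlapped.

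Genes of mature guard cells were lower by value, and of these only AT1G22690 passed the test, against 2.54% of all tested probe sets called lower. Of 36 listed genes 5 had a named probe set and all 5 were tested. Their median log2 difference was -0.47, and for all 5 both infested arrays were below both uninfested ones (28.1% of tested probe sets). CBC1 (AT3G01490), a Raf-like kinase of guard cells that promotes opening in blue light and low carbon dioxide, had signals of 233.0 and 115.4 on the infested arrays, against 388.0 and 361.7 on the uninfested ones. Its log2 difference was -1.11 ± 0.32 (SE), with a limma adjusted p of 0.101, or 0.0176 with the replicate block. Its close relative CBC2 (AT5G50000) had 841.8 and 647.0 on the infested arrays, against 960.0 and 940.3 on the uninfested ones, a log2 difference of -0.36 (limma adjusted p = 0.280).

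The other members of the guard cell list act in opening by light. BLUS1 (AT4G14480), a kinase that is phosphorylated by phototropins, had signals of 234.7 and 145.4 on the infested arrays, against 264.4 and 262.0 on the uninfested ones. Its log2 difference was -0.47 (limma adjusted p = 0.279). PATROL1 (AT5G06970), needed to bring the proton pump AHA1 to the plasma membrane, had 472.6 and 325.3 on the infested arrays, against 479.0 and 555.5 on the uninfested ones, a log2 difference of -0.38 (limma adjusted p = 0.325). For both genes infested 1 lay closer to each uninfested array than to infested 2, which was the lowest of the 4. The summed signal of the 5 guard cell genes was 2719.7 and 2087.3 on the infested and 3932.1 and 3830.6 on the uninfested arrays. The member AT1G22690 alone gave 937.6 and 854.2 of the infested sums and 1840.7 and 1711.1 of the uninfested ones. Without infested 1 all 5 passed, and all 3 tested genes of stomatal development did too, in a fit that called 18.7% of all tested probe sets lower and whose lone infested array is the one that stood apart.

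**Figure D2:**
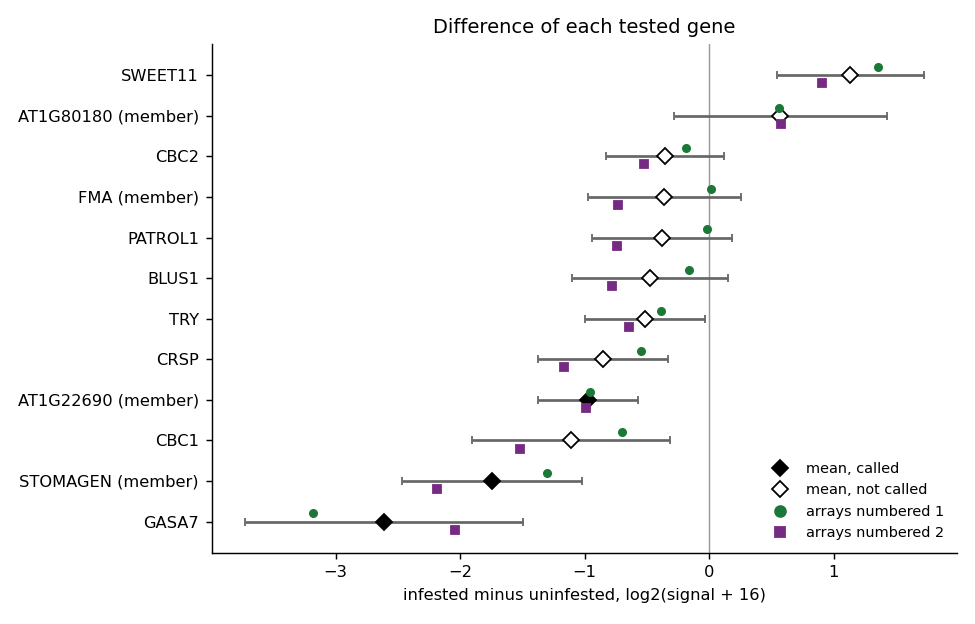
Log2 difference of infested minus uninfested leaves for every tested member and list gene, on log2(signal + 16), with 95% confidence intervals from limma; filled diamonds passed the test, open ones did not, and the small marks are the pairs of arrays numbered 1 (circles) and 2 (squares). STOMAGEN, AT1G22690 and GASA7 passed, and for FMA, PATROL1, BLUS1 and CBC2 the pair numbered 1 lies near 0.

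The array pairs gave differences of unequal size for most of these genes. The 8 tested genes of both lists included the members STOMAGEN, AT1G22690 and FMA but not AT1G80180, which was on neither list. Over the 8, the median log2 difference was -0.37 in the pair numbered 1 and -0.89 in the pair numbered 2. The pair numbered 2 was lower for all 8. The same order held for 59.8% of all tested probe sets, whose medians were 0.08 and -0.02. By size regardless of direction, the pair numbered 2 was larger for all 8 and for 65.9% of all tested probe sets. FMA had log2 differences of 0.01 and -0.74 in the pairs numbered 1 and 2, PATROL1 had -0.02 and -0.74, and BLUS1 had -0.16 and -0.78. Of the 8, AT1G22690 differed least between the pairs, with -0.96 and -0.99, and STOMAGEN had -1.30 and -2.19. All 8 were lower by value in infested leaves, against 46.5% of tested probe sets, and 2 of them passed the test. The tested member outside both lists, AT1G80180, was higher by value, with 0.56 and 0.58 in the pairs numbered 1 and 2.

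**Figure D3:**
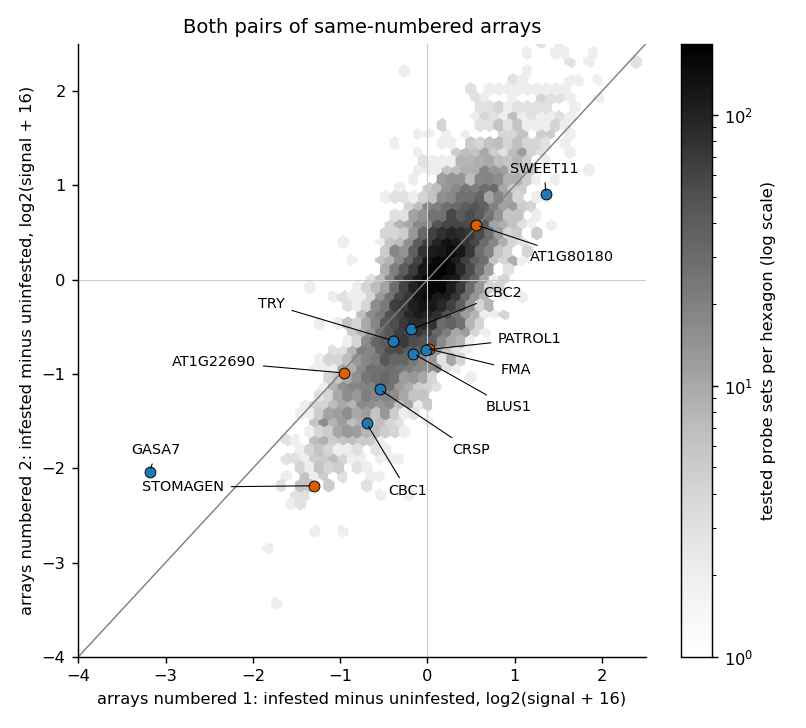
Log2 difference of infested minus uninfested in the pair of arrays numbered 1 (x axis) against the pair numbered 2 (y axis), on log2(signal + 16); grey hexagons count tested probe sets on a log scale, orange points are members, blue points are other list genes, and the line marks equal differences. STOMAGEN, FMA, PATROL1, BLUS1, CBC1, CBC2 and CRSP lie below the line, and so do the trichome gene TRY and the phloem gene SWEET11. GASA7 lies above the line, AT1G22690 and AT1G80180 lie on it, and 124 probe sets fall outside the axes.

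AT1G22690 belongs to the GASA family of small cysteine-rich proteins, named for their regulation by gibberellin. Of 15 listed family genes 6 had a named probe set and 2 were tested. Both were called lower, against 2.54% of all tested probe sets. The other was AT2G14900 (GASA7), with signals of 18.4 and 71.2 on the infested arrays, against 296.3 and 342.4 on the uninfested ones. Both infested signals lay under the filter's limit of 115.7, so GASA7 entered the test only through the uninfested arrays, where it was high. That entry favours a fall, and the 2 calls are no result about the family. Only 1 of the 2 infested arrays read above the highest control for an absent transcript. The pseudocount therefore sets much of the size of GASA7's log2 difference, which was -2.61 with 16 (limma adjusted p = 0.0419) and -1.86 with 64 (adjusted p = 0.0337). GASA7 was below the filter and not tested with a pseudocount of 1, with the limit at the 60th percentile and without either uninfested array. It lost its call with every probe set tested (limma adjusted p = 0.0857), a fit in which no probe set was called. The remaining 4 were dim and not tested. GASA8 had 115.9 and 82.1 on the infested arrays, against 74.7 and 45.7 on the uninfested ones, so both infested arrays were higher. GASA10 had 104.9 and 45.7 against 101.0 and 101.3, which overlapped. GASA11 and GASA12 were at or below the controls on 3 and 4 arrays. Of these, GASA11 overlapped and GASA12 read higher on both infested arrays.

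Markers of other cells of the leaf were mostly not named on the array annotation, and each list rests on at most 1 gene. Of 5 trichome genes TRY (AT5G53200), a small MYB protein that represses trichome fate and the gene next to SPCH in the RefSeq annotation of TAIR10.1, had 147.0 and 122.4 on the infested arrays, against 197.8 and 200.9 on the uninfested ones (log2 difference -0.52, limma adjusted p = 0.157). Of 11 epidermis and cuticle genes ACR4, an epidermal receptor kinase, had 31.7 and 46.0 on the infested arrays, against 42.9 and 72.9 on the uninfested ones, and was not tested. Of 5 phloem genes the sucrose exporter SWEET11 had 4179.3 and 4690.8 on the infested arrays, against 1622.3 and 2493.4 on the uninfested ones (log2 difference 1.13, limma adjusted p = 0.0553, or 0.00423 with the replicate block). The lists of mesophyll (4 genes), dividing cells (3 genes) and light and auxin regulators of stomatal number (8 genes) had 0 named probe sets, so the share of each cell type in the leaf RNA was not followed.

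For each tested member, the 3 genes of most similar pattern were found among 7365 tested probe sets with 1 gene, by Euclidean distance between log2 values on the 4 arrays after centring each gene on its mean. For STOMAGEN these were AT3G59780, AT1G21500 and AT2G42220, at distances of 0.09 to 0.14 on the log2 scale. AT3G59780 had signals of 575.8 and 322.8 on the infested arrays, against 1562.6 and 1513.7 on the uninfested ones, and so shared the lower reading on infested 2. For AT1G22690 they were AT3G60210, AT2G21530 and AT2G01870, at 0.02 to 0.07. AT3G60210 had 759.7 and 682.9 on the infested arrays, against 1464.7 and 1381.5 on the uninfested ones. For FMA they were AT5G06630, AT2G42320 and EXPA15, at 0.03 to 0.04. For AT1G80180 they were AT1G75810, AT3G11100 and AT1G08230, at 0.06 to 0.14. With 4 arrays such a likeness covers 4 values.

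**Figure D4:**
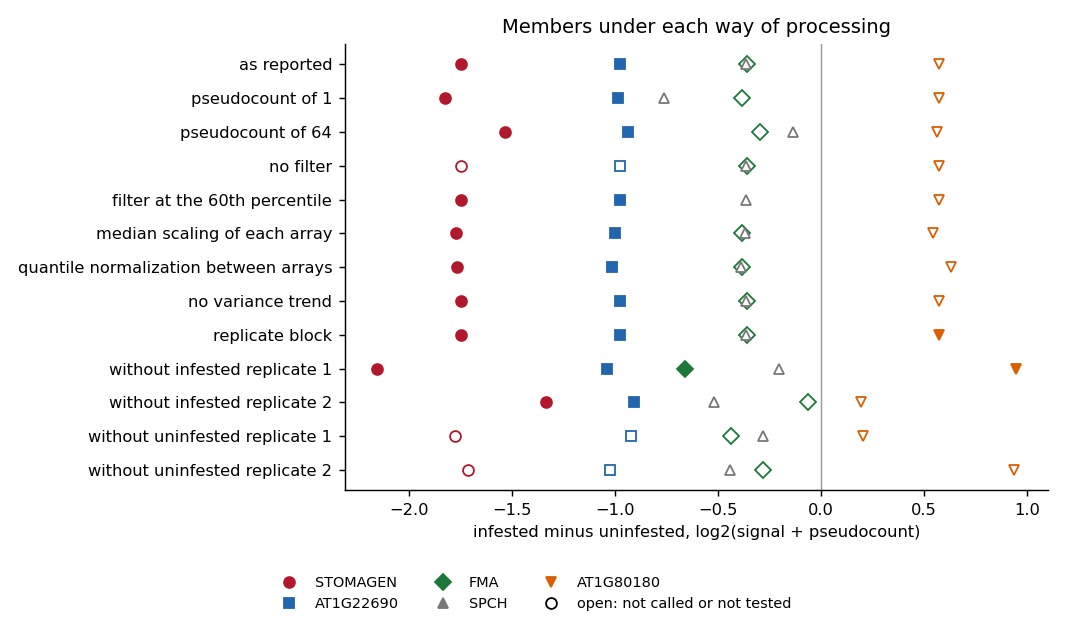
Log2 difference of infested minus uninfested leaves for the 5 members (symbols) under the reported processing and each of 12 alternatives; filled symbols passed limma's test and open ones did not or were not tested. STOMAGEN lies between -2.16 and -1.33 and AT1G22690 between -1.04 and -0.91 in every row, and FMA has no symbol with the filter at the 60th percentile because it was removed there.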

How the data were processed

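RNA of 4 pools was hybridized to 1-colour Affymetrix ATH1 arrays. The authors deposited linear signal intensity from MAS 5.0, run with its standard settings per the series text and the submitters' processing notes; the version is not given in the sources used here. Detection calls were not used here. Of 22810 probe sets 64 controls were not analysed. The scale was log2(signal + 16), which understates the change of dim genes, and probe sets whose mean log2 value fell under the 40th percentile were set aside (9098), leaving 13648 to test. The lowest tested mean equals a signal of 115.7. All were fitted together with R 4.3.3 and limma 3.58.1 (lmFit and trended eBayes). Benjamini-Hochberg adjustment covered all tested probe sets, with a threshold of 0.05. The procedure was tested on simulated data with independent noise of equal spread for every probe set. Those data lacked an array that stands apart and any correlation between same-numbered arrays. The number of arrays limits the precision.

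Names came from the platform annotation, updated by gene number to RefSeq (TAIR10.1): 13513 probe sets had a single gene, 503 had more than 1 and 8730 carry no name here. Of 124 loci in the gene lists 19 had a probe set and 105 were not analysed here. Named genes are the members, every list gene with a probe set of 1 gene, and the 3 tested genes nearest in pattern to each tested member. Members and lists were chosen with earlier results of these data known.

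By the series text, RNA of 2 replicate experiments was combined into an infested and a control pool, and 2 such sets of pools went on the arrays. The replicate number was assumed to mark such a set, which the titles do not state. Deviations from the group means correlated between same-numbered arrays (r = 0.264 across tested probe sets, which are not independent). The block is given only where it changed a call. Alternatives were the pseudocount, the filter, the scaling, the variance trend, the block and leaving out each array.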

Additional observations from a re-analysis of the deposited data

How the results depend on the processing

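No member changed direction under any of the 12 alternatives that gave it a value. STOMAGEN stayed on its side of the threshold in 9 of 12, and so did AT1G22690; both lost their calls with every probe set tested (log2 differences -1.75 and -0.98, adjusted p = 0.0825 and 0.0763) and without either uninfested array. Leaving out 1 array each, the log2 difference ran from -2.16 to -1.33 for STOMAGEN, from -1.04 to -0.91 for AT1G22690, from -0.66 to -0.062 for FMA and from 0.19 to 0.95 for AT1G80180. AT1G80180 passed with the replicate block (0.57, adjusted p = 0.0384), which changed the call of no other member. FMA was removed by the filter at the 60th percentile. The value of SPCH, below background, was -0.36 with a pseudocount of 16, -0.76 with 1 and -0.14 with 64.

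The calls over all probe sets, 386 higher and 347 lower, became 1254 and 1403 with the replicate block and 0 and 0 with no filter (4656 at an unadjusted p under 0.05 by limma). Lower calls became 589 with median scaling and 199 with no variance trend. Leaving out 1 array each, they ran from 0 to 2087 higher and from 0 to 2553 lower; the counts of 0 were without uninfested 1 and without uninfested 2, with 1640 and 1927 at an unadjusted p under 0.05 by limma. These fits have 1 residual degree of freedom, from the group that keeps both arrays, and the lone array is assumed to vary like them. The stomatal development list had 1 called, 2 with the replicate block, 0 with no filter and 0 to 3 leaving out 1 array; the guard cell list had 1, 2, 0 and 0 to 5. The GASA family had 2 called, 1 with a pseudocount of 1 and 1 with the filter at the 60th percentile (AT1G22690, since AT2G14900 was not tested), 0 with no filter and 0 to 2 leaving out 1 array. The list of light and auxin regulators gave no value. The cause of these shifts was not tested. Signals near those of the absent-transcript controls, as for SPCH and MUTE, set the limit of what could be compared.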
